A study of Mus musculus with 6 samples.

Results

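The Ugt2 and Ugt3 genes encode UDP-glycosyltransferases, enzymes of the endoplasmic reticulum that join a sugar to steroids, bile acids, fatty acids and drugs and so make them soluble enough to be excreted. Ugt2 enzymes use UDP-glucuronic acid as the sugar donor, whereas Ugt3 enzymes are known to use other UDP-sugars. In the liver they are made by hepatocytes. Acetaminophen (APAP), the drug given here, is itself cleared largely as a glucuronide, a step assigned mainly to enzymes of the related Ugt1a family, and an overdose injures the liver. The 10 genes were chosen by name. They are the rows of the expression table called Ugt2a3, Ugt2b1, Ugt2b5, Ugt2b34, Ugt2b35, Ugt2b36, Ugt2b37, Ugt2b38, Ugt3a1 and Ugt3a2, 8 of them Ugt2 and 2 of them Ugt3, out of 34745 genes in the table.

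The RNA was from whole livers of WT C57BL/6J mice. The methods of the study give male mice aged 8 to 10 weeks that were fasted for 12 hours and then injected intraperitoneally with APAP at 300 mg/kg or with saline for 12 hours. No transgene or mutant allele was carried by either group. The comparison used 2 APAP libraries, APAP1 and APAP3, and 3 saline libraries, WT1, WT2 and WT3. APAP replicate 2 was not analysed here, and the names of the saline libraries tell the group but not which numbered saline sample each one is. Nothing in the labels says that each library came from a separate mouse, so that p-values measure the spread between libraries.

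The libraries held 13378445 and 14845081 counts with APAP and between 14259730 and 15976339 counts with saline, and 3 counts corresponded to 0.176 to 0.269 CPM (the count of a gene relative to the size of its library, which was scaled by the TMM method). Of 34745 genes, 13734 passed the filter on low counts. Albumin, the main secreted protein of hepatocytes, took between 6.56% and 11.3% of the counts in every library, and none of 10 hepatocyte marker genes passed the test (edgeR's quasi-likelihood test, adjusted p under 0.05), with a median log2 fold change of −0.23. The libraries also differed in sex-linked expression. Xist, made from the inactive X, ranged from 289.6 to 914 CPM among saline libraries and reached at most 1.73 CPM with APAP, while the Y-linked genes Ddx3y, Eif2s3y, Uty and Kdm5d had 216 to 1344 counts in the APAP libraries and at most 1 count in any saline library. The pattern of the saline libraries is that of female liver and goes against the male sex given in the methods. That of the APAP libraries is male. Sex-linked expression and treatment therefore coincided in all 5 libraries and cannot be told apart in any result given here.

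With APAP, 6 of the 9 Ugt2 and Ugt3 genes that passed the filter fell and none rose. The 6 were Ugt2a3, Ugt2b1, Ugt2b34, Ugt2b36, Ugt3a1 and Ugt3a2, with mean levels between 11.4% and 25.3% of the saline mean. Ugt2b5, Ugt2b35 and Ugt2b37 did not pass the test, and Ugt2b38 was too low to be tested. Over all genes tested, 485 were lower and 508 were higher at the same threshold, which is 3.53% and 3.7% of 13734. All 9 fitted log2 fold changes were below 0 (with scaling by library size only, that of Ugt2b37 was 0.004), with a median of −2.03, beside a median of 0.03 over all genes tested. In bulk liver, fewer hepatocytes and less RNA per hepatocyte cannot be told apart. Summed over the 10 genes, saline livers held 3325 to 4367 CPM, APAP1 728 CPM and APAP3 1281 CPM, so that the higher APAP library stayed below the lowest saline library.

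**Figure D1:**
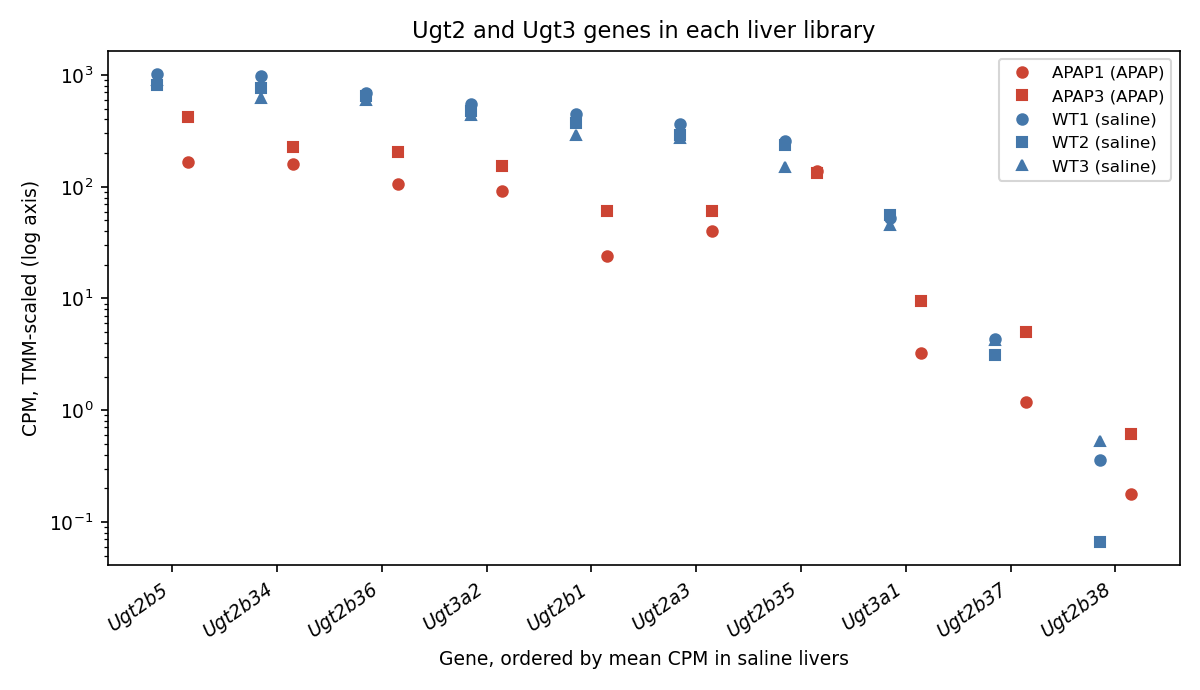
TMM-scaled CPM (log axis) of the 10 Ugt2 and Ugt3 genes in each of the 2 APAP libraries (red) and 3 saline libraries (blue), with 1 point per library and genes ordered by their mean in saline livers. In 8 of the 10 genes both APAP points lie below all 3 saline points, and those of Ugt2b37 and Ugt2b38 overlap.

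Ugt2b1 (ENSMUSG00000035836, chromosome 5 of GRCm38, 86916638 to 86926530, minus strand) had the most negative log2 fold change of the 9 tested genes. It encodes a UGT2B enzyme. WT1, WT2 and WT3 gave 450.4, 375 and 291.5 CPM, APAP1 gave 24.0 and APAP3 61.1 CPM. The higher APAP library was thus well under the lowest saline library. The saline mean was 372 ± 79.5 CPM (SD, n = 3), the APAP mean 42.5 ± 26.2 CPM (SD, n = 2), and the log2 fold change was −3.13 (SE 0.48, adjusted p = 0.016).

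Ugt3a1 (ENSMUSG00000072664, chromosome 15, 9273319 to 9315032, plus strand) and Ugt3a2 (ENSMUSG00000049152, chromosome 15, 9335550 to 9370955, plus strand) lie next to each other, away from the Ugt2 genes. The human enzymes of this family are known to transfer N-acetylglucosamine or glucose. For Ugt3a1, the 3 saline values were 52.9, 56.3 and 45.3 CPM, and the APAP values were 3.23 (APAP1) and 9.52 CPM (APAP3). Its log2 fold change was −3.01 (SE 0.47, adjusted p = 0.0164). Ugt3a2 was expressed at a higher level, 546, 472 and 442 CPM in WT1 to WT3, which became 91.5 CPM in APAP1 and 154 CPM in APAP3. Its log2 fold change was −1.98 (SE 0.32, adjusted p = 0.0183), and whether it differed from that of Ugt3a1 was not tested. Groups did not overlap in either gene, and APAP1 was the lowest library in both.

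Ugt2a3 (ENSMUSG00000035780, chromosome 5, 87324972 to 87337195, minus strand) encodes the only UGT2A enzyme with more than 1 count in these livers. WT1 to WT3 held 366, 294 and 276 CPM, compared with 40.1 CPM for APAP1 and 61.0 CPM for APAP3, again with no overlap. The log2 fold change was −2.62 (SE 0.31), and its adjusted p of 0.00676 was the smallest of the 9 tested genes. The 2 other UGT2A genes of the table, Ugt2a1 and Ugt2a2, had 1 count and 0 counts in all 5 libraries together and were not tested.

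Ugt2b34 (ENSMUSG00000029260, chromosome 5, 86889767 to 86906937, minus strand) and Ugt2b36 (ENSMUSG00000070704, chromosome 5, 87065927 to 87092555, minus strand) are UGT2B genes of the same cluster. Ugt2b34 read 986, 761 and 624 CPM from WT1 to WT3, but 160 CPM in APAP1 and 228 CPM in APAP3. Ugt2b36 varied less between saline livers (685, 649 and 594 CPM) and more between APAP1 (105 CPM) and APAP3 (206 CPM). In both genes the APAP libraries lay below every saline library, with means of 24.5% and 24.2% of the saline mean. The log2 fold changes were −2.03 (SE 0.33, adjusted p = 0.0198) and −2.05 (SE 0.36, adjusted p = 0.0233).

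Ugt2b5 (ENSMUSG00000054630, chromosome 5, 87124960 to 87140318, minus strand), a UGT2B gene that conjugates steroids and drugs, had the highest level of the 10 genes in CPM. APAP1 had 166 CPM and APAP3 423 CPM, whereas WT1, WT2 and WT3 had 1019, 822 and 899 CPM. The groups did not overlap, yet the APAP libraries differed from each other more than the saline libraries did, and the log2 fold change of −1.63 (SE 0.44, 95% interval −2.66 to −0.60) had an adjusted p of 0.072. Without APAP3, its log2 fold change was −2.47 with an adjusted p of 0.0382, and without APAP1 it was −1.11 with an adjusted p of 0.238. A looser rule, a fold of 1.5 or more with p under 0.05, was also applied with the unadjusted p, since the methods of the study do not say whether that p was adjusted. By that rule 7 of the 9 tested genes, Ugt2b5 among them, were lower, beside 1532 genes or 11.2% of all genes tested.

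Ugt2b35 (ENSMUSG00000035811, chromosome 5, 87000860 to 87013275, plus strand) had the least difference between groups among the genes above 10 CPM. The saline values of 257, 235 and 149 CPM (WT1, WT2, WT3) compare with 138 CPM in APAP1 and 132 CPM in APAP3. Both APAP libraries were below WT3, the lowest saline library, by less than the range of the saline libraries. The log2 fold change was −0.66 (SE 0.29, 95% interval −1.36 to 0.03, adjusted p = 0.219), an interval that does not exclude a fall of more than 1 on the log2 scale.

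Ugt2b37 (ENSMUSG00000057425, chromosome 5, 87240493 to 87254804, minus strand) and Ugt2b38 (ENSMUSG00000061906, chromosome 5, 87409942 to 87424203, minus strand) had the lowest levels of the 10 genes. Ugt2b37 gave 4.30, 3.12 and 4.28 CPM in saline livers, 1.18 CPM in APAP1 and 5.01 CPM in APAP3. APAP1 was the lowest and APAP3 the highest of the 5 libraries, and the log2 fold change of −0.34 (SE 0.60, 95% interval −1.76 to 1.08, adjusted p = 0.778) went to 0.004 with scaling by library size only. Ugt2b38 had 3 and 10 counts in the APAP libraries and 4, 1 and 8 counts in the saline libraries, and a difference was not detectable at this depth.

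In 8 of the 9 tested genes the 2 APAP libraries were lower than all 3 saline libraries, as they were in 2766 genes or 20.1% of all genes tested. APAP1 was lower than APAP3 in every tested gene of the 10 other than Ugt2b35, and that share over all genes was not computed. The number of genes that passed the test depended on single libraries. Without APAP1 it was 1 (Ugt3a1), without WT2 it was 1 (Ugt2a3) and without WT1 it was 5, where Ugt2b36 had an adjusted p of 0.0563. Without APAP3 it stayed at 6, with Ugt2b5 in place of Ugt2b34 (adjusted p = 0.0582). Ugt2a3 (−2.35, adjusted p = 0.0508) and Ugt2b1 (−2.61, adjusted p = 0.0524) missed the threshold narrowly without APAP1. Without APAP3, the log2 fold changes of Ugt2b1 and Ugt3a1 were −3.96 and −4.001, whereas without APAP1 that of Ugt3a1 was −2.43.

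**Figure D2:**
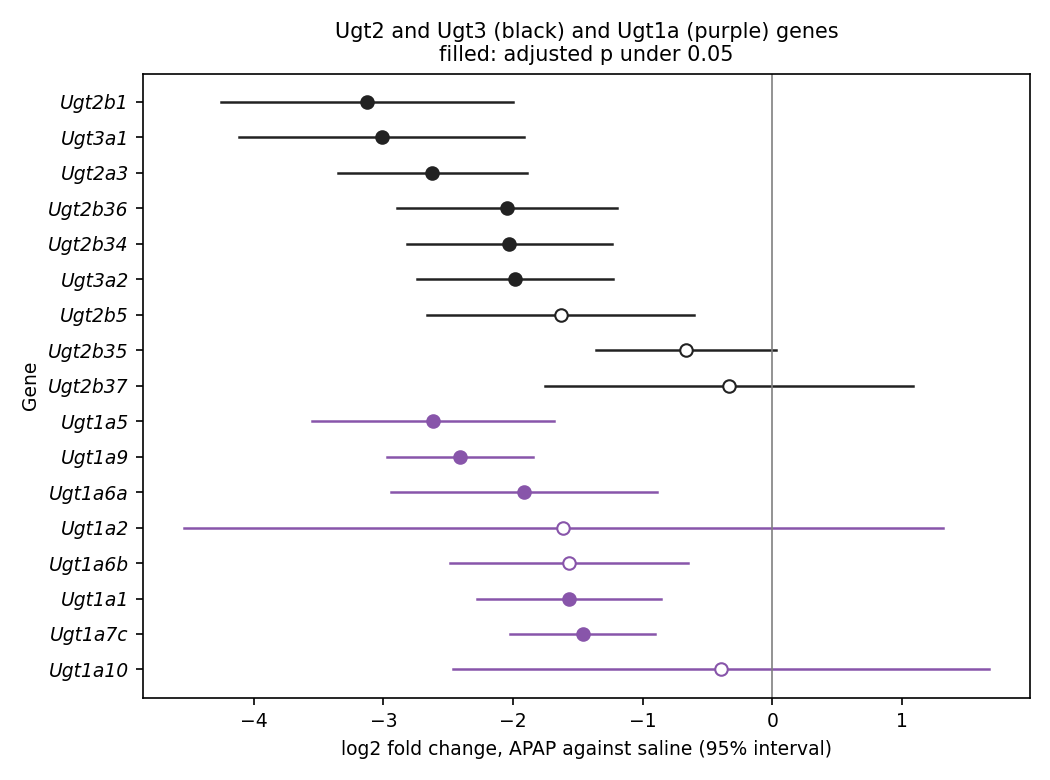
Fitted log2 fold change with its 95% interval for the 9 tested Ugt2 and Ugt3 genes (black) and the 8 tested Ugt1a genes (purple), with filled points for an adjusted p under 0.05. With TMM scaling all points lie left of 0 (with library size only, Ugt2b37 is at 0.004), and the intervals of Ugt2b35, Ugt2b37, Ugt1a2 and Ugt1a10 reach 0.

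To compare levels between genes, CPM was divided by the length of the exons of each gene in kb. In saline livers, the order per kb was Ugt2b5 at 492 ± 53.5 CPM per kb, Ugt2b36 at 312 ± 22.2, Ugt2b34 at 183 ± 42.4, Ugt3a2 at 157 ± 17.3, Ugt2a3 at 147 ± 22.6 and Ugt2b1 at 145 ± 30.9 CPM per kb (SD, n = 3). With this length, the latter 4 genes did not differ beyond their spread. They were followed by Ugt2b35 at 63.6 ± 17.0, Ugt3a1 at 19.3 ± 2.11, Ugt2b37 at 2.06 ± 0.36 and Ugt2b38 at 0.169 ± 0.125 CPM per kb. In APAP livers the order was the same for the 3 highest genes. Ugt2b35, at rank 7 in saline livers, was at rank 4 with 40.2 ± 1.07 CPM per kb (SD, n = 2), within the spread of Ugt3a2 at 39.6 ± 14.3 CPM per kb. With the length of the longest protein-coding transcript instead, Ugt3a2 was at rank 3 in both groups (209 ± 23.0 CPM per kb with saline, 52.8 ± 19.1 with APAP), Ugt2b34 at rank 4 in both, and Ugt2b35 at rank 5 in APAP livers. The saline values of Ugt3a2 by that length (189.7 to 234.3 CPM per kb) lay above all those of Ugt2a3 (130.2 to 172.9) and Ugt2b1 (113.3 to 175.0).

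Shares of the summed level per kb were taken with the exon length. Ugt2b35 made up 14.7% and 7.45% of the total in APAP1 and APAP3 and 4.42%, 4.78% and 3.25% in the saline libraries. Ugt2b1 made up 3.36% and 4.49% with APAP and 8.29% to 10.1% with saline. Shares of Ugt2b5 overlapped between groups, at 32.1% and 43.1% with APAP and 30.2% to 35.4% with saline. A ratio within a library does not depend on the scaling between libraries. The ratio of the Ugt2b1 count to the Ugt2b35 count was 0.175 and 0.461 with APAP and 1.75, 1.60 and 1.96 with saline, and ratios to Ugt2b35 also fell without overlap for the other tested genes except Ugt2b37. Ugt2b35 had the least difference between groups among the genes above 10 CPM. Lower ratios to it follow from that and are no separate result, and their share over all genes was not computed. With 2 against 3 libraries an exact permutation test of such a ratio cannot give a two-sided p below 0.1.

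**Figure D3:**
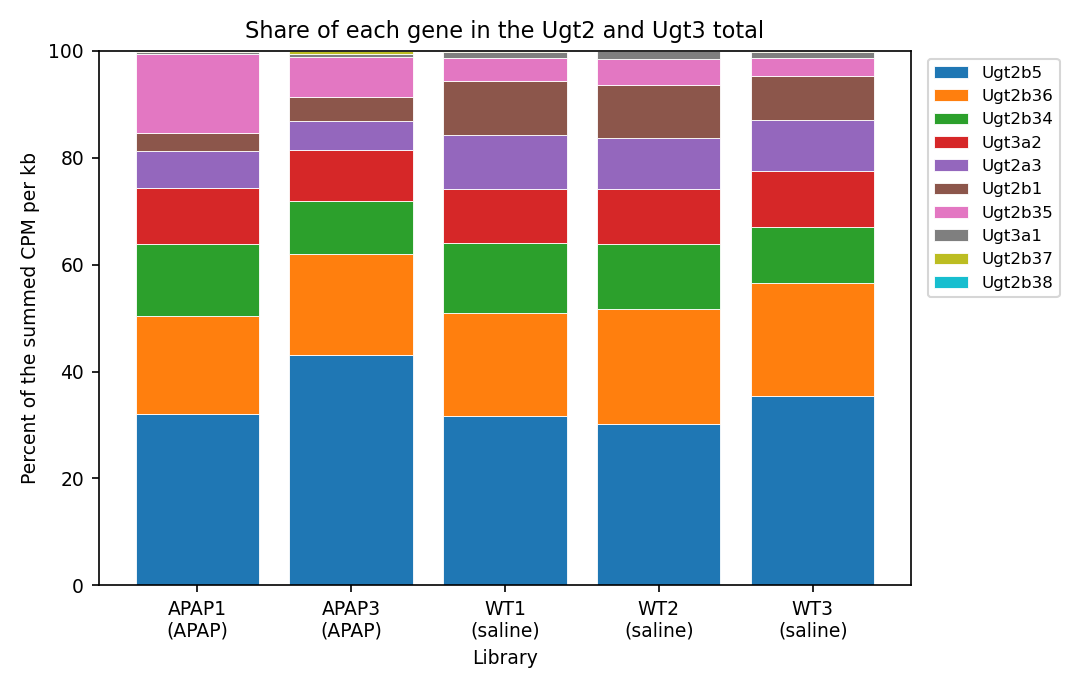
Percent of the summed CPM per kb of the 10 genes taken by each gene, with 1 stacked bar per library (2 APAP, 3 saline). The band of Ugt2b35 is wider in both APAP libraries (14.7% and 7.45%) than in the saline libraries (at most 4.78%), and the band of Ugt2b1 is narrower.

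The 8 Ugt2 genes lie in a stretch of 534.4 kb of chromosome 5, 86889767 to 87424203. Of the 18 genes of the table in this stretch, 10 are no members, 9 of them annotated as unprocessed pseudogenes (Gm7631, Gm42465, Gm31230, Gm5717, Gm19418, Gm7646, Gm7652, Gm21049 and Gm43370) and the other, Gm42796, as a transcript still to be tested. Of these, 7 had no count in any library and the highest count was 27, for Gm7652 in WT3. Ugt2b35 is the only 1 of the 8 Ugt2 genes on the plus strand. Genes that fell ran from Ugt2b34, the first of the cluster, to Ugt2a3, the last before Ugt2b38, and no annotated gene overlaps any of the 10.

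**Figure D4:**
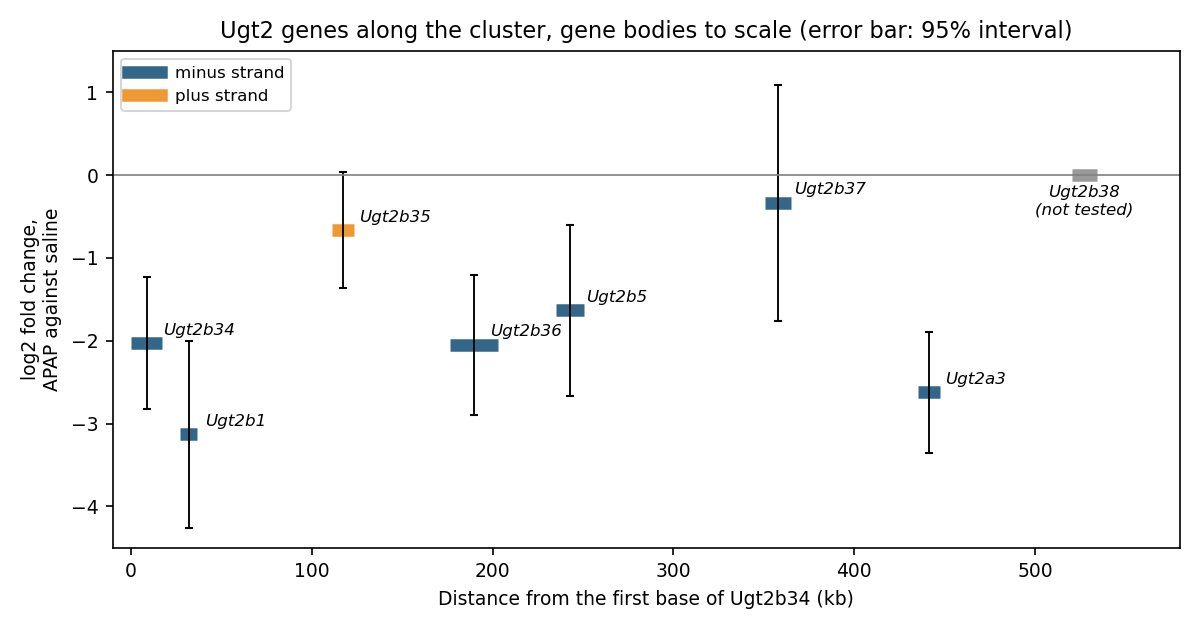
Gene bodies of the 8 Ugt2 genes to scale along the cluster (x axis, kb from the first base of Ugt2b34) at the height of their fitted log2 fold change with its 95% interval, with the strand in colour. Ugt2b35, the gene on the plus strand (orange), is at −0.66 between Ugt2b1 at −3.13 and Ugt2b36 at −2.05, and Ugt2b38, which was not tested, is drawn in grey at 0.

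The coding sequences differ in how alike they are, which bears on how reads could be assigned. All 8 Ugt2 genes have 6 exons and 529 to 534 codons in the transcript with the longest coding sequence, and both Ugt3 genes have 7 exons and 523 codons. Ugt2b5 and Ugt2b38 share 97.0% of aligned coding bases, Ugt2b5 and Ugt2b37 94.7%, and Ugt3a1 and Ugt3a2 93.2%. By contrast, Ugt2b1 shares at most 74.5% with any other gene of the 10. Of all stretches of 50 bases in the Ugt2b5 transcript, 41.7% also occur in a transcript of another gene, mostly Ugt2b38, and the share is 37.4% for Ugt2b38, 18.3% for Ugt2b37 and 9.39% for Ugt3a1 and for Ugt3a2. It is 4.55% for Ugt2a3, 1.45% for Ugt2b34, 0.326% for Ugt2b36, 0.303% for Ugt2b35 and 0% for Ugt2b1. Counts of Ugt2b5, Ugt2b37 and Ugt2b38 are therefore uncertain, and how reads that match several genes were counted is not given in the sources used here. The falls of Ugt2b1, Ugt2b34 and Ugt2b36 rest on transcripts with at most 1.45% of such stretches.

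The bases just before the start of transcription were compared because the Ugt2 genes that fell, that did not pass the test and that were too low to be tested sit in the same cluster. Sequences of 9 of the 10 genes were matched by symbol in RefSeq (GRCm38.p6). The 250 bases before the start were searched on both strands for AGGTCA and AGTTCA, letters bound by nuclear receptors, TTCNNNGAA, a STAT motif, and TATAAA. The 120 bases before the most upstream annotated start are printed for 6 Ugt2 genes, 5′ to 3′ on the strand of the gene, with AGGTCA in capitals. The first 4 are the genes with a shared block, and Ugt2b35 and Ugt2b1 are shown for contrast.
Ugt2b5 (chr5:87140341-87140460, minus strand, GRCm38.p6): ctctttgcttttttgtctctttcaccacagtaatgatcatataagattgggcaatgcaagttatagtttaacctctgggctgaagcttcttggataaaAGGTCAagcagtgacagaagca
Ugt2b36 (chr5:87092556-87092675, minus strand, GRCm38.p6): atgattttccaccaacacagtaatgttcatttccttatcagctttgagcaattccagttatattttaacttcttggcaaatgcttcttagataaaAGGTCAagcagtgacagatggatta
Ugt2b37 (chr5:87254805-87254924, minus strand, GRCm38.p6): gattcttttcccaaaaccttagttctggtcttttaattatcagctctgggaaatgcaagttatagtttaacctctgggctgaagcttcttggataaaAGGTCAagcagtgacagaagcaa
Ugt2b38 (chr5:87424204-87424323, minus strand, GRCm38.p6): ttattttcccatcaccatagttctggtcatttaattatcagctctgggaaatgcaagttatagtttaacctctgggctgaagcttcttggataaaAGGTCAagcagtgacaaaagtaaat
Ugt2b35 (chr5:87000740-87000859, plus strand, GRCm38.p6): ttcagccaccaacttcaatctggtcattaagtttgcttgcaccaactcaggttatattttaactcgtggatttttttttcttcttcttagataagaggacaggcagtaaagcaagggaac
Ugt2b1 (chr5:86926531-86926650, minus strand, GRCm38.p6): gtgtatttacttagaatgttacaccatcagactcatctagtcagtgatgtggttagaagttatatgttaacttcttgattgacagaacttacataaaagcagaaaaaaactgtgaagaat

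AGGTCA lies from −22 to −17 before the RefSeq start of Ugt2b5, from −25 to −20 in Ugt2b36 and Ugt2b38 and from −39 to −34 in Ugt2b37. The longest run shared by these 4 genes is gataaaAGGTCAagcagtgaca, of 22 bases, which was looked for after the sequences were seen and is held by 4 of 32851 promoter windows of the same length, those of these 4 genes. AGGTCA was also found in Ugt2b35, from −215 to −210, further from the start than the bases printed above, so that it was in 5 of the 9 genes and in 14.0% of all windows. AGTTCA was in Ugt2b37 (11.8% of all windows), from −15 to −10 before the RefSeq start. The other annotated start of Ugt2b37 is 16 bases further upstream, so that this AGTTCA lies after it and is not among the bases printed above. TATAAA was in Ugt3a1 (12.4%). TTCNNNGAA was in none of the 9 (7.02%). AGGTCA and AGTTCA did not overlap in any of these genes.

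The genes with the shared run differed in level. In saline livers Ugt2b5 was at 492 and Ugt2b38 at 0.169 CPM per kb, although 81.5% of the 250 aligned bases before their starts are identical. Of the 4, Ugt2b36 fell, Ugt2b5 and Ugt2b37 did not pass the test and Ugt2b38 was not tested. Whether the fold changes differ between these genes was not tested, and the intervals of Ugt2b36 and Ugt2b5 overlap. Ugt2b1, with the most negative log2 fold change, had none of the 4 motifs in this window, and the upstream bases of Ugt2b1 matched those of the other genes at no more than 46.8% of aligned positions. A match is a description of these letters and not a measured site of binding.

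The other genes of glucuronidation were read from lists written for these livers. Of 47 genes in the table, 43 were tested, 11 fell and 1 rose, with a median log2 fold change of −0.55. These calls too rested on single libraries, and 3, 6, 5, 1 and 11 genes passed without APAP1, APAP3, WT1, WT2 and WT3. Of the 12 genes, Ugt1a9 alone passed under each of the 13 alternatives. In the Ugt1a family, which makes glucuronides of bilirubin and of APAP, 5 of 8 tested genes fell and none rose, with a median of −1.59. Ugt1a1, the bilirubin enzyme, dropped to 297 CPM (APAP1) and 224 CPM (APAP3) from saline values of 929, 655 and 731 CPM (log2 fold change −1.57, SE 0.30, adjusted p = 0.0303). Ugt1a6a, an enzyme for small phenols, had saline values of 219, 194 and 112 CPM, next to 30.3 CPM for APAP1 and 62.2 CPM for APAP3 (log2 fold change −1.92, SE 0.43, adjusted p = 0.0466). Ugt1a9 had a log2 fold change of −2.41 (SE 0.24, adjusted p = 0.00433), Ugt1a5 of −2.62 and Ugt1a7c of −1.46. Groups did not overlap in any of these 5 genes. Ugt1a genes share their last exons, so that counts of a single Ugt1a gene are uncertain.

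Genes that supply UDP-glucuronic acid did not move together. Ugdh, the enzyme that makes UDP-glucuronic acid from UDP-glucose, ranged over 152, 203 and 174 CPM in saline livers, next to 193 CPM for APAP1 and 316 CPM for APAP3 (log2 fold change 0.53, SE 0.29), and did not pass the test. Ugp2, which makes UDP-glucose, had a log2 fold change of −0.70 (SE 0.37) and did not pass it either. Of the 6 genes, the one annotated as Pgm1 (ENSMUSG00000029171, chromosome 5) rose, from 4.65 to 7.01 CPM in the saline libraries to 25.9 and 15.6 CPM in the APAP libraries (log2 fold change 1.92, SE 0.32, adjusted p = 0.0204). The gene annotated as Pgm2 (ENSMUSG00000025791, chromosome 4), named after its values were seen, had 290, 233 and 225 CPM in saline livers. It had 201 and 231 CPM in APAP1 and APAP3, with groups that overlapped (log2 fold change −0.21, SE 0.24, adjusted p = 0.644). What either of them contributes to the supply of UDP-glucuronic acid in these livers was not tested.

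Of 7 genes of glucuronide hydrolysis and glucuronate use, 3 fell. They were Rgn, the gluconolactonase, with a log2 fold change of −4.06 (46.2 and 89.8 CPM with APAP, 607 to 1516 CPM with saline), Gulo, which catalyses the last step of vitamin C synthesis in mice, with −2.32, and Enpp1, a nucleotide pyrophosphatase, with −1.53. Among 6 transporters, Slco1b2, the hepatocyte uptake carrier for organic anions, fell from between 1527 and 1585 CPM to 104 and 304 CPM (log2 fold change −2.94), and none of the other 5 passed the test.

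Of 16 regulators, 2 fell, Stat5b, which carries the growth hormone signal, with a log2 fold change of −1.59 (SE 0.21), and Cebpa, a hepatocyte transcription factor, with −1.35 (SE 0.26). The xenobiotic receptors did not pass the test. Nr1i2, which encodes PXR, ranged over 76.3, 92.4 and 107 CPM in saline livers and gave 63.4 and 64.3 CPM in APAP1 and APAP3 (log2 fold change −0.52, SE 0.23), and Nr1i3, which encodes CAR, had a log2 fold change of −1.01 (SE 0.43) with groups that overlapped. Hnf4a had 871, 960 and 1424 CPM in saline livers and 415 and 706 CPM in APAP1 and APAP3, with no overlap. Its log2 fold change of −0.95 (SE 0.37, adjusted p = 0.172) did not pass the test. It passed under 1 of 13 alternatives, DESeq2 (adjusted p = 0.0386).

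**Figure D5:**
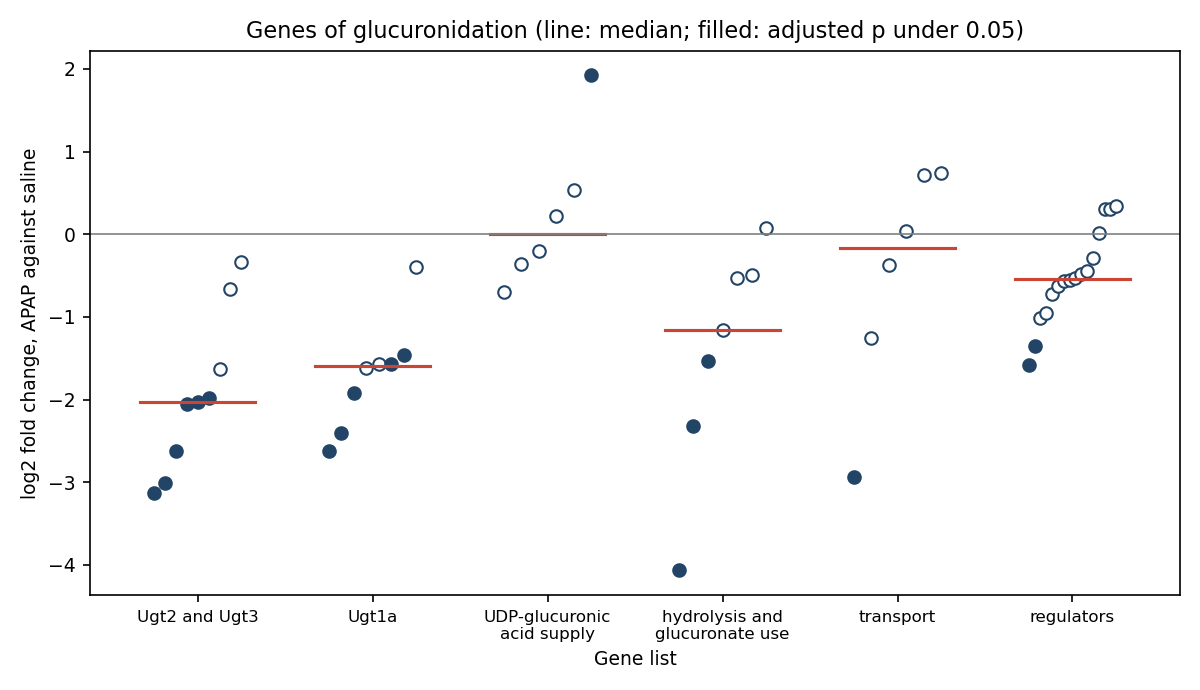
Fitted log2 fold change of each tested gene (point) in the Ugt2 and Ugt3 genes and in 5 lists of glucuronidation genes, with the median of each list as a red line and filled points for an adjusted p under 0.05. The medians are −2.03 for Ugt2 and Ugt3, −1.59 for Ugt1a and close to 0 for the supply of UDP-glucuronic acid, where Pgm1 at 1.92 is the filled point.

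Markers of other cells moved with the groups. Of 8 tested neutrophil markers, 7 rose, and their summed level was 2161 and 738 CPM in APAP1 and APAP3 and 14.9 to 70.5 CPM in the saline libraries, with 1 of the 9 listed markers at 0 in all saline libraries. Most of this sum was Lcn2, singled out after its values were seen, which injured hepatocytes are also known to make (2045 and 661 CPM with APAP, 9.50 to 62.1 CPM with saline). Without it, 6 of 7 tested markers rose and the sum was 116 and 76.7 CPM with APAP and 5.38 to 8.35 CPM with saline. Of 5 tested cholangiocyte markers 2 rose, Spp1 and Sox9, with a summed level of 347 and 356 CPM with APAP and 47.0 to 52.3 CPM with saline. Most of that sum was Spp1, also singled out after its values were seen (276.3 and 313.1 CPM with APAP, 37.68 to 42.65 CPM with saline). Krt19, Krt7 and Epcam did not pass the test. Of 7 tested rows of monocyte markers 2 rose (99.7 and 159 CPM with APAP, 76.1 to 111 CPM with saline). None of 7 Kupffer cell, 7 endothelial, 7 stellate cell or 4 tested lymphocyte markers passed the test. APAP1 was the APAP library with the higher sum of neutrophil markers, with and without Lcn2. It was also the lower library for 8 of the 9 tested Ugt2 and Ugt3 genes, and that share over all genes was not computed. The sums of cholangiocyte, monocyte, Kupffer cell, endothelial, stellate cell and lymphocyte markers were instead higher in APAP3 than in APAP1. The summed level of the 10 hepatocyte markers was 105200 and 154200 CPM with APAP and 145900 to 205400 CPM with saline, with groups that overlapped. The part of these cells in the falls of the Ugt2 and Ugt3 genes was not tested.

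Of 15 genes known to be female-biased in liver, 13 were lower with APAP (median log2 fold change −8.16). Of 12 tested male-biased genes none passed the test (median 2.06), with 8 log2 fold changes above 0 and 4 below 0. The summed level of the male-biased genes did not separate the groups. It was 755.7 CPM in APAP1, 13760 CPM in APAP3 and 946.7 to 1257 CPM in the saline libraries. Most of the sum in APAP3 was Serpina1e, singled out after its values were seen (192.1 CPM in APAP1, 11520 CPM in APAP3, 595.2 to 662.9 CPM with saline). By a fold of at least 1.5 with unadjusted p under 0.05, 7 of the 12 tested male-biased genes were higher and 1 was lower. Over all 13734 genes tested, 1696 were higher and 1532 lower by that rule.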

How the data were processed

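Poly(A) RNA libraries from mouse liver (SMARTER mRNA-Seq kit, per the labels) were sequenced on an Illumina instrument. The authors aligned reads with HISAT2 and counted them per gene on GRCm38 (mm10), and the deposited table holds raw read counts beside 5 columns of StringTie FPKM, which were not used here. Strand setting and the handling of reads that match several genes are not given in the sources used here. No count row lacked a gene name. Library totals ran from 13378445 to 15976339 counts.

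The counts were filtered with filterByExpr (at least 10 counts, total of at least 15), scaled by TMM and tested with edgeR 4.0.16 (R 4.3.3) by the quasi-likelihood test, APAP against saline, without covariates. P-values were adjusted over all genes tested by the Benjamini-Hochberg method, and an adjusted p under 0.05 was called. Every SE and 95% interval is of the log2 fold change, and n is 2 for APAP and 3 for saline. No pair of libraries of a group agreed within counting error, since chi-square values divided by their degrees of freedom were 43.2 to 92.2. The script was tested on simulated data. Floors of 3 counts cover counting error only.

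The 10 genes, the gene lists and the motifs were chosen with earlier results of these data known. All 10 genes are given in every library. Of the glucuronidation lists, genes that passed the test are named, and Ugt1a1, Ugt1a6a, Ugdh, Ugp2, Nr1i2, Nr1i3 and Hnf4a whatever their values. Results for 1 other gene of that rule and for 1 motif are not reported here. Exon lengths, transcripts and neighbouring genes are from GENCODE M21, and identities from global alignment (biopython 1.88). The alternatives tried were DESeq2 1.42.0, the likelihood ratio and exact tests of edgeR, other scalings and filters, a fold and unadjusted p rule and leaving out each library.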

Additional observations from a re-analysis of the deposited data

How the results depend on the processing

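The count of Ugt2 and Ugt3 genes that passed the test was 6 or 7 under every other test, scaling and filter tried, and 1 to 6 when a library was left out (1 without APAP1 and 1 without WT2). For the glucuronidation lists it was 12, 19 by a fold of at least 1.5 with unadjusted p under 0.05 and 1 to 11 with a library left out. Over all genes it was 993, 1835 with the likelihood ratio test, 1776 with the exact test, 2093 with DESeq2, 3228 by that fold and unadjusted p and 165 to 922 with a library left out. Leaving out a library leaves fewer samples, and in 2 of these 5 fits the lone APAP sample is assumed to vary like the saline samples. Ugt2b5 passed the threshold under 5 of 13 alternatives, and Ugt2b35 and Ugt2b37 under none. Scaling by library size only moved the median of all genes by 0.39 on the log2 scale and the share of higher genes among those called from 51.2% to 77.8%, and turned the sign of Ugt2b37 (0.004). With a library left out, Ugt2b37 ran from −1.732 to 0.365 (without APAP1), and the cause was not tested. Scaling by relative log expression or upper quartile moved that median by −0.04 and 0.04. The length of the longest transcript instead of the exon length moved the saline level per kb of Ugt3a2 from 157 to 209. Words of 100 bases instead of 50 lowered the share of Ugt2b5 found in other genes from 41.7% to 24.7% and that of Ugt2b37 from 18.3% to 1.06%. No paired analysis was possible because the saline columns can be tied to their group but not to a numbered saline sample, so that nothing pairs their numbers with those of the APAP samples.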
